A study of Oryctolagus cuniculus with 4 samples.

Results

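The cells described here were picked from the rabbit bladder by their calgranulin RNA. Calgranulins are the calcium-binding S100 proteins S100A8, S100A9 and S100A12 that neutrophils and blood monocytes hold in large amounts. A cell was gated when S100A8 and S100A9 together made up at least 0.2% of its UMIs (unique molecular identifiers, each standing for 1 captured RNA molecule) and more than the MHC class II genes CD74 and HLA-DRA together. Cells with 3 or more of the 6 macrophage genes C1QA, C1QB, C1QC, CSF1R, MRC1 and CD163, with any UMI of the epithelial gene CDH1, or with 0.5% or more of their UMIs in the fibroblast genes DCN and LUM were left out. This gate took 391 of 21945 kept cells, where a kept cell had 500 UMIs or more, 200 genes or more and no more than 15% of UMIs in 13 mitochondrial genes. These measured values chose the cells, so the levels of the genes in the gate are given as a description. Those genes stayed in the fits below, so counts of genes that passed can include them. Their calls are not read as results.

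The cells came from single-cell RNA sequencing of bladder mucosa of Oryctolagus cuniculus, with 2 samples per group and 1 library per sample. Normal_1 and Normal_2 were mucosa in homeostasis, without injury. Injury_1 and Injury_2 came from bladders in which a patch of mucosa had been cut out, on day 10, with the defect newly resurfaced by urothelium. In both groups a piece of mucosa with sides of 2.0 cm was minced and digested with collagenase, with no sort for any cell type. The labels give the tissue as urothelium, and 2144, 2473, 980 and 2349 of the kept cells of Injury_1, Injury_2, Normal_1 and Normal_2 carried the fibroblast genes DCN and LUM at 0.5% or more of UMIs with few endothelial UMIs. The files held between 28745017 UMIs in Normal_1 and 47881609 in Normal_2, and the median kept cell held between 4813.5 and 7186 UMIs. No gated cell shared its barcode with a gated cell of another library, and any pair of libraries shared 4 to 12 barcodes among all kept cells.

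Neutrophils are short-lived cells of the blood that enter injured tissue early, answer to chemokines such as CXCL8 through CXCR1 and CXCR2, and carry little RNA, much of it for calgranulins and inflammatory cytokines. Monocytes arrive in the same tissue, share S100A8, S100A9, IL1B and CD14 with neutrophils, and differ from them by genes such as VCAN and AIF1 and by class II antigen presentation. Endothelial cells line the vessels through which both must pass, and hold them there with the selectins SELP and SELE and the adhesion molecule VCAM1. S100A8 and S100A9 proteins usually occur as a pair.

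The working label of the gated cells is neutrophil-like, and the data went against it for most of a set of 119 among the 391. Those 119 cells held endothelial RNA and almost none of the pan-leukocyte gene PTPRC, and they are called SELP VWF cells here after their leading genes. They were set apart by a share of at least 0.2% of UMIs in 7 endothelial genes (CDH5, SELP, TM4SF1, TM4SF18, VWF, KDR and EMCN). The other gated cells fell on both sides of a gap in depth, with 2 of them between 1500 and 2000 UMIs and 2 between 2000 and 3000. Those under 2000 UMIs are called low-UMI cells (185 cells) and those at or above it high-UMI cells (87 cells). Both splits were chosen after the values had been seen, so no test compares the 3 subgroups. Near the endothelial split, 26 cells lay between 0.1% and 0.2% and 6 between 0.2% and 0.3%. Of the SELP VWF cells of Injury_1, Injury_2, Normal_1 and Normal_2, 3, 1, 2 and 3 held under 1000 UMIs. Very few endothelial UMIs reach 0.2% in such small cells, so the split is not firm for them. The 2 SELP VWF cells with a PTPRC UMI, both in Injury_1, were among them.

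**Figure D1:**
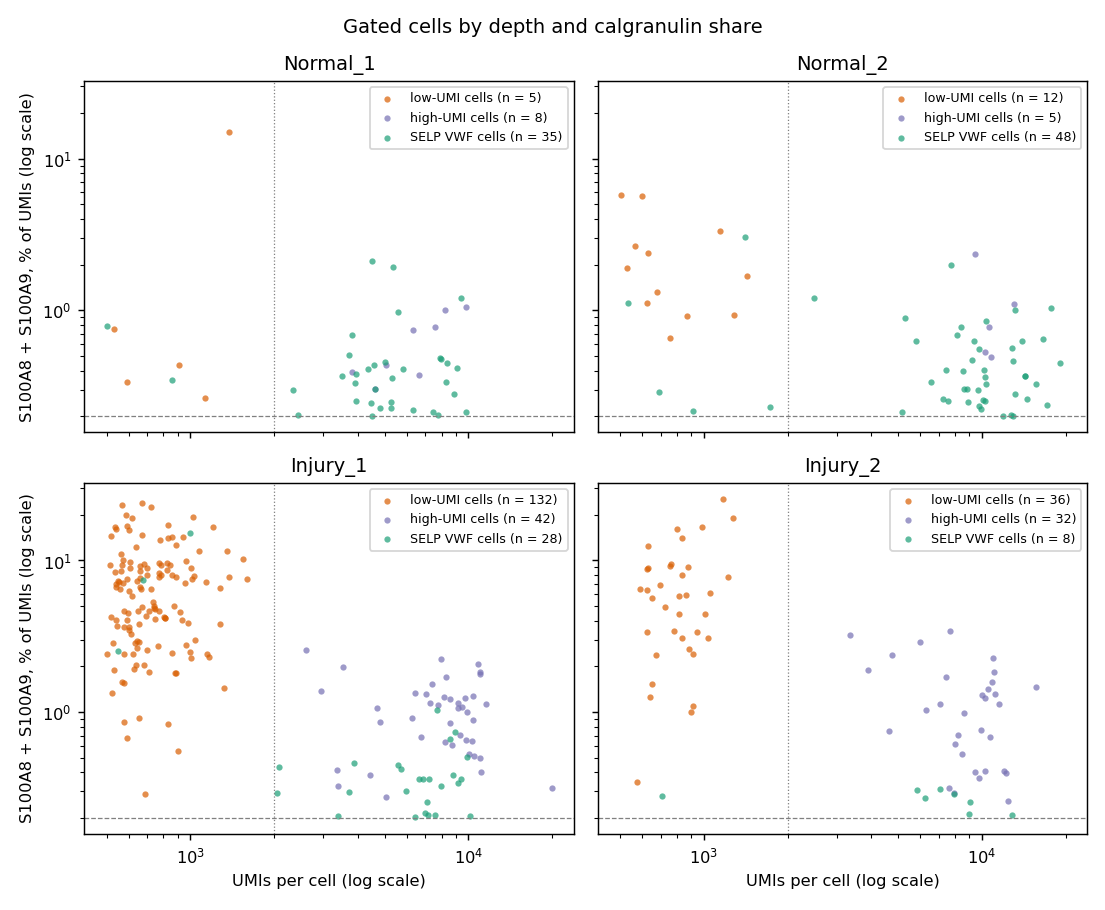
Each point is 1 gated cell, with its UMIs on the x axis and the percent of them from S100A8 and S100A9 on the y axis (both log scales), in 1 panel per sample. Dashed lines mark the 0.2% gate and dotted lines the split at 2000 UMIs. Low-UMI cells lie at the upper left and are mostly from Injury_1 (132) and Injury_2 (36), while SELP VWF cells lie close to the gate and are mostly from Normal_1 (35) and Normal_2 (48).

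The low-UMI cells held the largest share of calgranulin RNA. Their median was 709 UMIs and 274 genes per cell, 0.418% of UMIs were mitochondrial, and S100A8 and S100A9 took 5.31% of UMIs at the median. UMIs summed over the cells of a sample were scaled to the same total per sample, and are given as CPM, the unit of this scaling. S100A8 stood at 27089 and 26498 CPM in Injury_1 and Injury_2 and at 20691 and 9156 CPM in Normal_1 and Normal_2. S100A9 stood at 44030, 47932, 27515 and 12278 CPM in the same order. Both Injury samples lay above both Normal samples for each gene, which is not read as a result, since the gate used both genes. The Normal values rest on 5 and 12 cells, and in Normal_1 a single cell with 14.9% of its UMIs in S100A8 and S100A9 stood far above the other 4, whose shares were between 0.266% and 0.750%.

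S100A12, the third calgranulin and no part of the gate, set these cells apart. It reached 19725 and 18802 CPM in the Injury samples and 9025 and 4266 CPM in the Normal samples, a mean of 12954 ± 7549 CPM (SD, n = 4) against 123 ± 182 CPM in the high-UMI cells. The Normal values of the low-UMI cells rest on 41 UMIs in 2 of 5 cells of Normal_1 and 41 UMIs in 7 of 12 cells of Normal_2. Per UMI of S100A9 there were 0.448, 0.392, 0.328 and 0.347 UMIs of S100A12 in the low-UMI cells of Injury_1, Injury_2, Normal_1 and Normal_2. In the high-UMI cells that ratio was 0.0176 in Injury_1, 0.0541 in Injury_2 and 0 in both Normal samples. With every cell thinned to 500 UMIs, S100A12 was found in 92.2% and 79.8% of low-UMI cells of Injury_1 and Injury_2 and in 38.8% and 52.2% of those of Normal_1 and Normal_2. In DCN LUM cells, which should lack the gene, the same share was between 0.027% and 0.324%. The median depth was 652.5 to 911 UMIs in the low-UMI cells of a sample and 5001 to 8602 UMIs in its DCN LUM cells.

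Cytokine RNA filled much of the rest. CXCL8, the chemokine that draws neutrophils, made up 118702 and 158380 CPM in the Injury samples and 48206 and 113620 CPM in the Normal samples. IL1B, the secreted interleukin-1, stood at 57221, 79190, 196126 and 65550 CPM in that order, so that its highest and its next to lowest value were both in Normal samples. PTGS2, the inducible cyclooxygenase of prostaglandin synthesis, stood at 18297 ± 8818 CPM and NFKBIA, the inhibitor that NF-kB induces against itself, at 25084 ± 9363 CPM (SD, n = 4). The Injury and Normal values overlapped for IL1B, PTGS2 and NFKBIA, and both Injury values lay above both Normal values for CXCL8. How many genes lay apart in this way was not counted within the low-UMI cells. Over all gated cells it was 60.1% of genes tested. The interleukin-1 antagonist IL1RN stood at 3443 ± 1097 CPM, the decoy receptor IL1R2 at 456 ± 201 CPM and the co-receptor IL1RAP at 1225 ± 380 CPM.

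The leukocyte genes PTPRC, LCP1 and PLEK were detected in the low-UMI cells of every sample, and the neutrophil receptors only in part. PTPRC, or CD45, was at 698, 506, 1101 and 416 CPM in Injury_1, Injury_2, Normal_1 and Normal_2. The actin-bundling protein LCP1 was at 2003 ± 518 CPM and PLEK, or pleckstrin, at 3954 ± 906 CPM. PECAM1, an adhesion molecule of leukocytes and endothelium alike, was at 2267 ± 738 CPM. CXCR1, a receptor for CXCL8, had 14 UMIs in Injury_1, 3 in Injury_2 and 0 in both Normal samples. Among all high-UMI and SELP VWF cells it had 1 UMI. Of 18 neutrophil receptor and adhesion genes on the list, 7 had a symbol in the files, and 5, 3, 2 and 3 of those were detected in the low-UMI cells of Injury_1, Injury_2, Normal_1 and Normal_2. LTB4R, a leukotriene receptor, and MME were at 0 UMIs in all 4 samples, and CXCR4 had 2 UMIs in the low-UMI cells of Injury_1 and 0 in those of the other samples. CSF3R, CXCR2 and ITGAM were among those without a symbol.

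The granule genes were split. MPO, CTSG, CAMP and MMP8, proteins of granules laid down in the marrow, were at 0 UMIs in all 3 subgroups. LTF, or lactoferrin, had 25, 4, 0 and 1 UMIs in the low-UMI cells of Injury_1, Injury_2, Normal_1 and Normal_2, and 2 each in the high-UMI cells of Injury_1 and Injury_2. BPI, a bactericidal protein of neutrophil granules, went the other way, with 38, 20, 6 and 24 UMIs in the high-UMI cells of Injury_1, Injury_2, Normal_1 and Normal_2 against 3, 0, 0 and 0 in the low-UMI cells. CHI3L1, a chitinase-like protein of granules that other cells make too, stood at 1304 ± 614 CPM in low-UMI cells and 1879 ± 598 CPM in high-UMI cells. The monocyte genes AIF1 and VCAN were almost absent from low-UMI cells, at 8 and 4 UMIs over all samples.

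The genes with a symbol that exceeded the high-UMI cells most in every sample were S100A12, RUBCNL, TAGAP, LIPN, ACOD1, SAMD9 and C1orf162. The smallest of the 4 sample differences was 5.57 for S100A12 and 4.71 for RUBCNL on the log2(CPM + 10) scale. ACOD1, the enzyme that makes itaconate in activated myeloid cells, had a mean of 676 ± 182 CPM against 9.67 ± 15.1 CPM in the high-UMI cells. F3, the tissue factor that starts coagulation, had 2078 ± 560 CPM against 141 ± 131 CPM, and the histone demethylase KDM6B had 5398 ± 2845 CPM against 616 ± 291 CPM.

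Genes listed as fibroblast and endothelial markers were detected in these small libraries too. The 6 fibroblast genes with a symbol summed to 3462 and 3949 CPM in the Injury samples and 660.4 and 2705 CPM in the Normal samples, and all 6 were detected in both Injury samples. The gate itself holds DCN and LUM under 0.5%. The 8 endothelial genes summed to between 1541 and 3329.5 CPM, most of it PECAM1, which leukocytes hold too. CDH5 was at 0 in all 4 samples. Whether RNA of other cells had a part in the levels above was not tested.

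The high-UMI cells were RNA-rich cells with the monocyte genes. Their median was 8648 UMIs, 1297 genes and 7.34% mitochondrial UMIs, and S100A8 and S100A9 took 1.01% of UMIs at the median. S100A8 stood at 4228, 4167, 3110 and 4277 CPM in Injury_1, Injury_2, Normal_1 and Normal_2, and S100A9 at 6061, 7112, 3955 and 6035 CPM. Beside them stood VCAN, a matrix proteoglycan typical of classical monocytes, at 522, 479, 576 and 574 CPM. AIF1 was at 1098 ± 199 CPM (SD, n = 4), S100A4 at 6636 ± 1709 CPM and the phospholipase-like PLBD1 at 483 ± 243 CPM, against 25.9, 191 and 0 CPM in the low-UMI cells. THBS1, or thrombospondin 1, was at 3935 ± 894 CPM against 92.2 CPM. SERPINB2, the plasminogen activator inhibitor of monocytes, was at 2635 ± 1037 CPM against 963 ± 1853 CPM in the low-UMI cells. In the low-UMI cells of Normal_1 it reached 3742 CPM, from 17 UMIs, so it did not set the subgroups apart in every sample. The Normal values of the high-UMI cells rest on 8 and 5 cells.

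IL1B was the most abundant named cytokine gene of the high-UMI cells, at 71227 and 74818 CPM in the Injury samples and 80113 and 101603 CPM in the Normal samples. CXCL8 stood at 42259, 48853, 20196 and 30788 CPM, with both Injury samples above both Normal samples. ARG1, the arginase of repair-type myeloid cells, went the other way, with 1186, 1034, 4915 and 1777 CPM. How many genes had groups apart was not counted within the high-UMI cells. PTPRC was at 650 ± 56.4 CPM and CD14 at 1650 ± 666 CPM. Class II RNA was not absent, with HLA-DRA at 1909 ± 451 CPM and HLA-DMA at 693 ± 258 CPM, although the gate keeps CD74 and HLA-DRA below S100A8 and S100A9. C1QA and C1QB were at 0 UMIs, which the gate favours.

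The SELP VWF cells had S100A9 with little or no S100A8. S100A9 stood at 4654, 2573, 4901 and 4725 CPM in Injury_1, Injury_2, Normal_1 and Normal_2. S100A8 had 89 UMIs against 796 of S100A9 in Injury_1 and 0 against 151 in Injury_2. In the Normal samples it had 0 against 929 and 24 against 2191. That is 0.112, 0, 0 and 0.011 UMIs of S100A8 per UMI of S100A9. In the low-UMI cells the ratio was 0.615, 0.553, 0.752 and 0.746, and in the high-UMI cells 0.698, 0.586, 0.786 and 0.709. S100A12 had 121, 0, 0 and 18 UMIs in the SELP VWF cells of Injury_1, Injury_2, Normal_1 and Normal_2. That is 0.152, 0, 0 and 0.008 per UMI of S100A9, so Injury_1 stood apart for this gene as well. The SELP VWF cells of Injury_1 include 3 cells under 1000 UMIs with 2.54%, 7.42% and 15.3% of UMIs in S100A8 and S100A9, as the plot of depth against calgranulin share shows.

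Their other RNA was endothelial. SELP was at 4110, 4635, 3925 and 4173 CPM, and VWF, the clotting factor stored with it in the granules of endothelial cells, at 5063, 4379, 2691 and 3360 CPM. The caveolar protein CAV1 had a mean of 1691 ± 641 CPM, SELE of 640 ± 410 CPM and VCAM1 of 597 ± 244 CPM (SD, n = 4). The junction gene CDH5 had 20, 6, 15 and 45 UMIs. PTPRC had 2 UMIs in Injury_1 and 0 in the other 3 samples, the myeloid genes AIF1 and VCAN had 0 in all 4, and IL1B had 235, 1, 0 and 30 UMIs. CD14, one of the markers given for the gated cells, stood at 224 ± 105 CPM in them and at 147 ± 60.5 CPM in the endothelial-marked cells outside the gate. Those outside cells, between 700 and 1097 per sample, held S100A9 at 118, 83.1, 149 and 147 CPM and S100A8 at 6.54, 1.42, 0.632 and 0 CPM. S100A9 thus again stood well above S100A8, at a lower level. Of all endothelial-marked cells the gate took 2.61% and 1.13% in the Injury samples and 3.09% and 4.35% in the Normal samples.

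**Figure D2:**
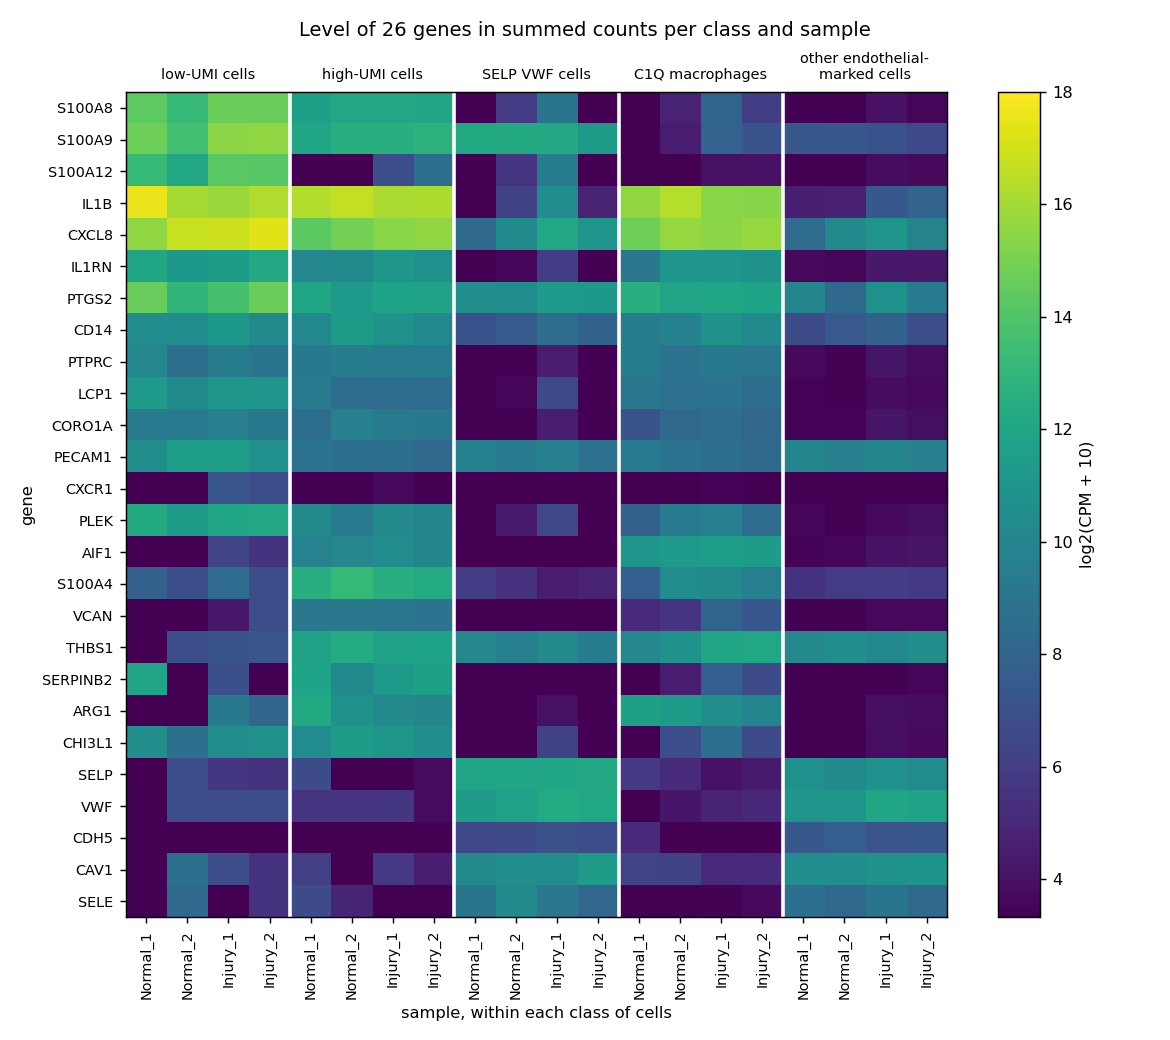
Colour gives log2(CPM + 10) of 26 genes (rows) in counts summed per sample (columns) for the 3 subgroups of gated cells, for C1Q macrophages and for endothelial-marked cells outside the gate. S100A9 is brighter than S100A8 in the SELP VWF cells, S100A12 is brightest in the low-UMI block, and AIF1, S100A4, VCAN and THBS1 separate the high-UMI cells from the low-UMI cells.

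The gated cells were 3.32% of kept cells in Injury_1 (202 cells, 95% Wilson interval 2.90 to 3.80), 1.37% in Injury_2 (76 cells, 1.10 to 1.72), 1.11% in Normal_1 (48 cells, 0.841 to 1.47) and 1.08% in Normal_2 (65 cells, 0.847 to 1.37). Injury_1 stood alone, and the interval of Injury_2 overlapped those of both Normal samples. The mean was 2.35% ± 1.38 in Injury and 1.10% ± 0.0253 in Normal (SD, n = 2), a difference of 1.25 percentage points (two-sided exact permutation test, p = 0.33, the smallest p that 2 samples against 2 can give). The intervals hold counting error alone.

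The subgroups moved in opposite directions under this total. Low-UMI cells made up 2.17% of kept cells in Injury_1 and 0.651% in Injury_2 against 0.116% in Normal_1 and 0.199% in Normal_2. High-UMI cells made up 0.691% and 0.579% in the Injury samples against 0.186% and 0.0830% in the Normal samples. SELP VWF cells made up 0.460% and 0.145% in the Injury samples against 0.812% and 0.796% in the Normal samples. Both Injury samples lay on one side of both Normal samples in each of the 3 (exact permutation p = 0.33 for each, the smallest possible). Because of these shifts SELP VWF cells were 13.9% and 10.5% of the gated cells of Injury_1 and Injury_2 but 72.9% and 73.8% of those of Normal_1 and Normal_2. Without them the gated cells were 2.86% and 1.23% of kept cells in the Injury samples and 0.302% and 0.282% in the Normal samples.

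**Figure D3:**
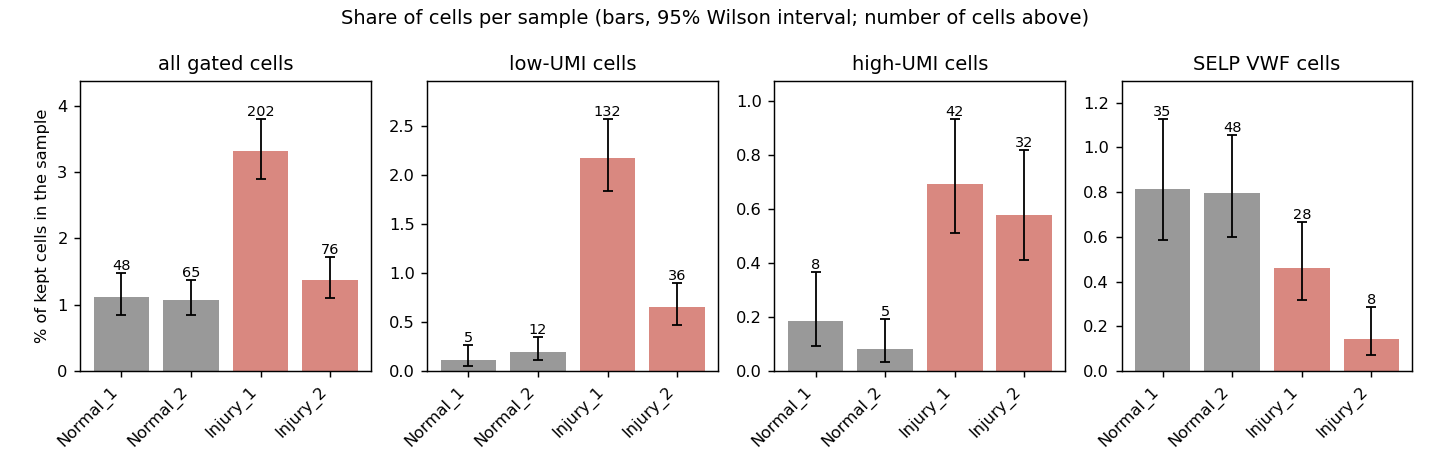
Bars give the percent of kept cells in each sample that were gated, in all and for each subgroup, with 95% Wilson intervals and the number of cells above. Injury bars are higher for low-UMI and high-UMI cells and lower for SELP VWF cells.

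The low-UMI cells lay against the lower limit of depth. Of the 185 cells, 42 had 500 to 600 UMIs and 49 had 600 to 700, and no barcode under 500 UMIs was in the files, so cells of the same kind below that limit are not counted here. Among all kept cells under 2000 UMIs, gated cells were 30.8% in Injury_1 (135 of 439), 14.4% in Injury_2 (37 of 257), 2.79% in Normal_1 (7 of 251) and 6.67% in Normal_2 (17 of 255). With a limit of 1000 UMIs in place of 500, the share of gated cells was higher in Injury by 0.180 percentage points (exact permutation p = 1).

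At the edge of the gate, the gated cell with the lowest share had 0.2005% of UMIs in S100A8 and S100A9 and the first cell outside had 0.199%. Of the cells between 0.2% and 0.3%, 45 of 50 were SELP VWF cells, while 154 of 168 cells at 2% or more were low-UMI cells. A total of 1351 cells met every other criterion and missed only the 0.2% share, 53 missed only the comparison with class II genes, 21 only the limit on DCN and LUM, 17 only that on mitochondrial UMIs, 17 only the 200 genes, 7 only the macrophage genes and 3 only CDH1.

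The injury comparison over all gated cells used counts summed per sample, with genes tested by the quasi-likelihood test of edgeR and p-values adjusted over all genes by the Benjamini-Hochberg method. Of 3076 genes tested, 284 passed an adjusted p of 0.05 (9.23%), with 221 higher in Injury (7.18%) and 63 lower (2.05%). Values of the 2 groups did not overlap for 60.1% of all genes tested. With library size alone in place of TMM scaling, which put the median of all genes at -0.29 on the log2 scale, 139 genes were higher and 100 lower. The 284 calls compare mixtures of cells, since SELP VWF cells supplied 27.7% and 15.6% of the UMIs in Injury_1 and Injury_2 and 77.0% and 87.9% in Normal_1 and Normal_2.

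The largest increase was that of S100A12, at 3456 and 1774 CPM in Injury_1 and Injury_2 and 167 and 112 CPM in Normal_1 and Normal_2, with a log2 fold change of 4.52 ± 0.46 (SE, edgeR adjusted p = 0.00704). Other large increases were those of the lymphotoxin gene LTB (4.45), the hexokinase HK3 (4.23), TAGAP (3.85), PLEKHB2 (3.83), CD69 (3.82), the chemokine receptor CXCR4 (3.74), DOCK8 (3.68) and RUBCNL (3.66). Their values in Normal_1 and Normal_2 rest on few UMIs, where 3 UMIs make 12.2 and 5.69 CPM. LTB and CXCR4 were both at 4.06 and 5.69 CPM, HK3 at 0 and 7.59 and TAGAP at 4.06 and 7.59. DOCK8 was at 8.12 and 3.79 CPM, CD69 at 0 and 17.1, RUBCNL at 8.12 and 17.1 and PLEKHB2 at 0 and 53.1. The sizes of these fold changes are therefore not firm.

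Among cytokine genes, 8 of 24 were tested and 4 were higher, where 7.18% of all genes tested were higher. CXCL8 was at 44162 and 50180 CPM in the Injury samples and 5411 and 6298 CPM in the Normal samples, a log2 fold change of 3.32 ± 0.39 (adjusted p = 0.00704, edgeR). IL1B was at 49614 and 63504 CPM against 20571 and 11658 CPM, at 2.15 ± 0.41 (adjusted p = 0.0171, edgeR). IL1A rose by 2.46 and the neutrophil chemokine CXCL5 by 1.98. In the interleukin-1 pathway 8 of 11 tested genes were higher, among them IL1RN (3.08), IL1R2 (2.95), IL1RAP (2.37), the IL1B-processing protease CASP1 (2.27) and IL18BP (1.66), with a median over the list of 2.15 against 0.00194 over all genes tested. In the comparison without the SELP VWF cells, given below, 0 of 10 tested genes of this list passed and its median was 0.18.

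Of 7 pan-myeloid genes tested, 6 were higher, where 7.18% of all genes tested were higher. They were FCER1G (2.77), AIF1 (2.72), CORO1A (2.68), PTPRC (2.48), LCP1 (2.36) and CD14 (1.89). PTPRC was at 490 and 513 CPM in the Injury samples and 146 and 81.5 CPM in the Normal samples. Of the monocyte markers 3 of 5 were higher (PLAC8, ITGA4 and VCAN), of the granule genes 2 of 4 (CHI3L1 and S100A12), and of the pattern and Fc receptors 2 of 2 (CD14 and CLEC4E). Of the NADPH oxidase genes NCF4 was higher and 1 other did not pass. Of the survival and NF-kB feedback genes 4 of 9 were higher, namely MCL1 (2.24), CFLAR (2.87), BIRC3 (1.88) and TNFAIP3 (1.55), while NFKBIA did not pass at 0.77 (adjusted p = 0.191, edgeR). Of the class II and macrophage lists, HLA-DMA (2.37) and LGMN (2.62) were higher. CD74, HLA-DRA and CSF1R passed too, but they are genes of the gate and their calls are not read as results. In the comparison without the SELP VWF cells, given below, 0 genes of these lists passed. The median of the pan-myeloid list went from 2.48 to -0.08 there.

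Of 7 endothelial markers tested, 2 were lower (SELP and TM4SF1) and 5 did not pass, where 2.05% of all genes tested were lower. SELP was at 1144 and 728 CPM in the Injury samples and 3043 and 3671 CPM in the Normal samples (-1.56 ± 0.37, adjusted p = 0.0347, edgeR). TM4SF1 fell with it (-1.52), and VWF did not pass at -0.98 (adjusted p = 0.175, edgeR). Among the largest decreases outside that list were SELE (-2.69), ADGRL4 (-2.40) and JCAD (-2.47). The chaperones CRYAB (-3.01), HSPB1 (-2.32) and HSPA8 (-1.54), the secreted phospholipase PLA2G2D (-3.43) and the stress gene GADD45G (-2.59) were lower too. On the dissociation stress list HSPB1 and HSPA8 were lower, DUSP1 (2.11) was higher and 5 did not pass.

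Of 6 fibroblast markers tested, 4 did not pass. The other 2, DCN and LUM, are genes of the gate, so their calls are not read as results. DCN was at 209 and 114 CPM in the Injury samples and 32.5 and 41.7 CPM in the Normal samples, and LUM at 136 and 79.7 CPM against 0 and 30.3 CPM. The 6 markers summed to 1094 and 951 CPM in the Injury samples and 129.99 and 2105 CPM in the Normal samples, so the groups overlapped, and their part in the increases above was not tested. None of 5 tested hypoxia and glycolysis genes passed, where 9.23% of all genes tested did. Of 10 interferon genes 1 passed (SAMHD1, 2.01), and of 11 genes of tissue repair and arginine metabolism 1 did (FN1, 1.81). With so few genes a list, these counts are near that share and are not read as results about the lists. ARG1 was at 766 and 813 CPM in Injury and 1040 and 182 CPM in Normal, with overlapping groups. Of the mitochondrial genes 1 of 13 was lower (ATP8, -1.80), where 2.05% of all genes tested were lower. Neither of 2 tested cell cycle genes passed. Markers of B cells, mast cells, eosinophils and red cells were too low to be tested, and the 1 tested T and NK gene did not pass.

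Without the SELP VWF cells, a comparison added after the data had been seen, none of 1486 genes tested passed in edgeR (0.0%), and 93 had an unadjusted p under 0.05. The Normal sums then held 13 and 17 cells. CXCL8 had a log2 fold change of 0.82 (adjusted p = 0.790), IL1B of -0.41 (adjusted p = 0.999), PTPRC of -0.08 (adjusted p = 0.999) and CD14 of -0.26 (adjusted p = 0.999, all edgeR). S100A12 stood at 2.21 with an unadjusted p of 0.000528 and an adjusted p of 0.359. Of 50 named genes that could be compared, 49 lay nearer to 0 than before and 16 changed from above 0 to below it. Of these 50, 46 had passed over all gated cells, and most were named for that. The move toward 0 was thus partly set by the choice of genes, and these counts are a description. The median over all genes tested was 0.04 in this comparison. Low-UMI and high-UMI cells also differed in proportion between the samples, and the part of that in these values was not tested.

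**Figure D4:**
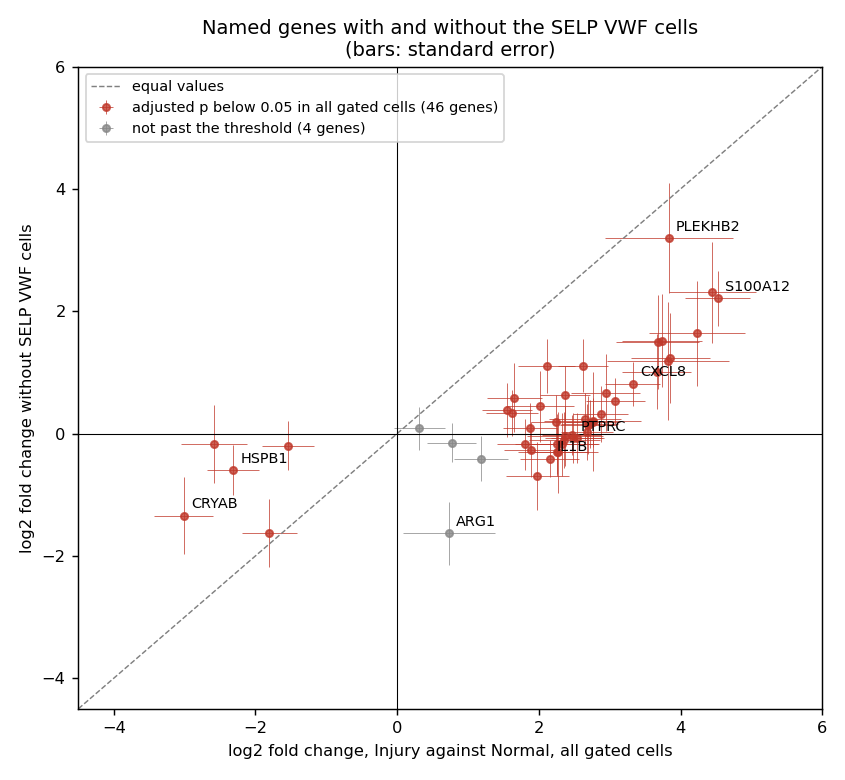
Each point is 1 of 50 named genes, with its log2 fold change in Injury against Normal over all gated cells on the x axis and without the SELP VWF cells on the y axis (bars are standard errors). Most increases near 2 to 3 on the x axis sit near 0 on the y axis, and PLEKHB2, LTB and S100A12 stay highest. Of the 50 genes, 46 had passed over all gated cells.

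The last comparisons asked whether injury moved genes in the gated cells differently from other myeloid cells of the same samples, with the rabbit as a term in the edgeR fit. The other cells were C1Q macrophages (25 to 233 cells a sample) and class II myeloid cells without C1Q (12 to 174 cells a sample). Against C1Q macrophages the effect differed for 134 of 3993 genes (3.36%), higher in gated cells for 112 (2.8%) and lower for 22 (0.551%). Against class II myeloid cells it differed for 141 (3.53%), higher for 104 (2.6%) and lower for 37 (0.927%). Both comparisons share the gated cells, so they are not independent.

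CXCL8 was at 43885, 54671, 28127 and 51731 CPM in C1Q macrophages, and its injury effect was larger in gated cells by 2.90 ± 0.28 on the log2 scale (adjusted p = 9.62e-05, edgeR). Larger effects were also found for CFLAR (3.38), the decoy receptor IL1R2 (4.28), DOCK8 (3.90) and CXCR4 (3.17). Smaller ones were found for GADD45G (-3.51), PLEKHO1 (-2.73), the endothelial adhesion gene ICAM2 (-2.48) and EMP1 (-3.22). Against class II myeloid cells the effect was larger for RUBCNL (6.06), LTB (4.92), DOCK8 (3.91), LY86 (3.71) and CXCL8 (1.99). It was smaller for GADD45G (-4.91), PLEKHO1 (-4.10), ICAM2 (-4.13) and EMP1 (-4.05). For DOCK8, CXCR4, RUBCNL and LTB the Normal values of the gated cells rest on the few UMIs described above. Without the SELP VWF cells, 4 genes passed against C1Q macrophages and 5 against class II cells. With a symbol among them were COL1A2 (2.79), DCN (5.07, a gene of the gate) and HIF1A (-2.69, against class II cells), named after their values had been seen. CXCL8 then stood at 0.65 (adjusted p = 0.642) and -0.15 (adjusted p = 0.962, edgeR).

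In those other myeloid cells IL1B stood at 54228 ± 21029 CPM in C1Q macrophages and 62972 ± 10422 CPM in class II myeloid cells (SD, n = 4), and its values in the low-UMI and high-UMI cells overlapped these. CXCL8 of the low-UMI cells was above that of C1Q macrophages and of class II myeloid cells in each of the 4 samples. The class II cells had 40973 and 38090 CPM of it in the Injury samples and 14369 and 22171 CPM in the Normal samples. S100A12 stood at 2.97 ± 3.45 and 3.23 ± 4.13 CPM in them, below every sample of the low-UMI cells. Over all gated cells together, the genes with the largest smallest excess over C1Q macrophages were SELP, VWF, CLU, RAMP2 and ADH6, and S100A12 came next. These differences were not tested, because the gate set the cells apart.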

How the data were processed

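Droplet single-cell libraries (10x Chromium 3' v3) of 2 Injury and 2 Normal samples of rabbit bladder mucosa were used. The authors made the deposited UMI counts per gene and barcode with Cell Ranger 6.0.1, per the file headers, and chose the barcodes. Cells above the mitochondrial limit that the study set in Seurat were still among the barcodes. The genome build and annotation are not given in the sources used here. Of 18475 features, 9771 carried a symbol, and 194 of 335 genes of the 26 lists did. Reads of overlapping genes or close copies could not be told apart. The lists, the members and the gate were chosen with earlier results of these data known.

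Counts were summed per sample and class. Genes passed filterByExpr and were tested with edgeR 4.0.16 (TMM, glmQLFit and glmQLFTest, threshold 0.05 on Benjamini-Hochberg adjusted p-values) in R 4.3.3, with DESeq2 1.42.0 as an alternative. The method was tested on simulated data with set fold changes and no shift in the mix of cells between groups. That test does not bear on the shift in SELP VWF cells described above. CPM levels of sums were compared as log2(CPM + 10). Shares of cells with a UMI were thinned by expectation to 500 UMIs. Shares carry 95% Wilson intervals and two-sided exact permutation tests. Scrublet (scanpy 1.11.5) scored doublets, and no cell was removed for its score in the values of the report. It marked 1.55%, 1.34%, 0.255% and 2.60% of cells in Injury_1, Injury_2, Normal_1 and Normal_2, and 3, 1, 0 and 2 gated cells were among the 5% with the highest scores. C1Q macrophages had 3 or more of the 6 macrophage genes and 0.2% of UMIs or more in CD74 and HLA-DRA. Class II myeloid cells without C1Q had fewer of the 6, no CDH5 and no lymphocyte marker, 2 or more of 6 myeloid genes, and 0.5% or more in CD74 and HLA-DRA, which was not below S100A8 and S100A9. Both kept the limits on CDH1, DCN and LUM. Endothelial-marked cells had at least 0.2% of UMIs in the 7 endothelial genes.

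Named were the genes of the gate and lists, and genes among the 10 largest changes each way that passed, had a symbol, averaged 20 CPM or more in the group where they were higher and had groups that did not overlap. Some genes that met this rule are not reported here. With 2 samples a group, edgeR p-values of the injury comparison measure the spread between these bladders, with dispersion estimates that share information across genes. In the comparisons with other myeloid cells the rabbit was a term in the fit. Those p-values measure the spread that remains between cell classes within these bladders. Replicate numbers do not pair the samples by any label, and deviations of same-numbered samples correlated at 0.00913 over 3076 genes. Python 3.11.15, numpy 2.4.6, scipy 1.17.1, pandas 2.3.3 and matplotlib 3.10.9 were used.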

Additional observations from a re-analysis of the deposited data

Results flagged for a closer look

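The injury effect differed between the gated cells and C1Q macrophages for 134 genes, and between the gated cells and class II myeloid cells without C1Q for 141 genes, by a test of the difference itself. The share of SELP VWF cells moved with this result, since they were 72.9% and 73.8% of the gated cells in the Normal samples and 13.9% and 10.5% in the Injury samples. Without them, 4 and 5 genes passed.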

How the results depend on the processing

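The count of 284 genes that differed with injury in gated cells became 584 with no filter on low counts (of 8925 genes), 155 with at least 1000 UMIs per cell and 0 without SELP VWF cells. With S100A8 and S100A9 at 0.5% or more it was 228, of which 46.9% were higher in Injury in place of 77.8%. Leaving out 1 sample gave 292 to 594, the highest without Normal_1. DESeq2 called 225. This comparison was not run at 1% of UMIs, since 1 sample then held 6 cells, under the minimum of 10. The differences from other myeloid cells were run at 1% with that sample. The count of 134 against C1Q macrophages became 224 with no filter, 36 at 1% of UMIs, 24 with no rabbit term and 4 without SELP VWF cells, and 4 to 197 on leaving out 1 sample (4 without Normal_2, 50 without Injury_1, 81 without Injury_2). The count of 141 against class II myeloid cells became 46 at 1% of UMIs, 7 with no rabbit term, 239 with each pair of classes alone and 5 without SELP VWF cells, and 57 to 93 on leaving out 1 sample (61 without Injury_1, 70 without Injury_2, 93 without Normal_1, 57 without Normal_2). A lone sample left in a group was assumed to vary like the others. With the replicate number as a block the 3 counts were 81, 33 and 17, and the pairing of numbers had no support in the labels or the values.

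The difference in the share of gated cells was 0.278 percentage points without Injury_1 and 2.23 without Injury_2, 0.180 with at least 1000 UMIs and 1.75 without SELP VWF cells, an alternative added after the data were seen. For SELP VWF cells the Injury minus Normal difference, over cells with a PTPRC UMI alone, was 0.0721 percentage points, which rests on 2 cells in Injury_1 and 0 in the other samples and says nothing of their direction.

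Without SELP VWF cells the log2 fold change turned sign for CASP1 (-0.31), CD14 (-0.26), CHI3L1 (-0.076), CLEC4E (-0.17), CXCL5 (-0.70), FN1 (-0.17), HLA-DMA (-0.037), IL1A (-0.022), IL1B (-0.41), ITGA4 (-0.18), LCP1 (-0.11), PTPRC (-0.077), VCAN (-0.30), NFKBIA (-0.15), ARG1 (-1.63) and THBS1 (-0.41). The differences from C1Q macrophages turned for PLEKHO1 (3.81) and EMP1 (0.54), and those from class II cells for PLEKHO1 (2.52) and CXCL8 (-0.15). ARG1 turned to -0.0081 at 0.5% of UMIs and ranged from -0.031 to 2.39 on leaving out 1 sample. The cause of these changes was not tested. Each setting also leaves fewer cells, and the part of that was not tested either. The 2 samples a group and the 13 and 17 Normal cells without SELP VWF cells limit what could be detected.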

Other observations

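LYZ, the lysozyme gene of myeloid cells, was present or absent by sample and not by group in the high-UMI cells. It had 449 UMIs in Injury_2 and 191 in Normal_1, and 0 in Injury_1 and Normal_2, although Injury_1 had 42 of these cells and 346484 UMIs. In class II myeloid cells without C1Q it had 698 UMIs in Injury_2, 183 in Normal_1, 10 in Normal_2 and 0 in Injury_1, so that the same samples were high. Over all kept cells it stood at 47.8 CPM in Injury_2 and 29.4 in Normal_1 against 1.48 in Injury_1 and 0.451 in Normal_2. Low-UMI and SELP VWF cells had 0 UMIs of it in all 4 samples. The cause was not tested.

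IFIT3, an interferon-induced gene, was higher in SELP VWF cells than in high-UMI cells in all 4 samples, with 1649, 1380, 2680 and 433 CPM in Injury_1, Injury_2, Normal_1 and Normal_2 against 46.2, 10.4, 288 and 0 CPM. Endothelial-marked cells outside the gate had 1559, 905, 2127 and 391 CPM of it. SPP1, or osteopontin, stood at 1596, 506, 1541 and 208 CPM in the low-UMI cells and at 208, 34.7, 76.8 and 0 CPM in the high-UMI cells. These are descriptions of subgroups that were cut from the same data.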
